A study of Mus musculus with 14 samples.

Results

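The blastocoel, the fluid-filled cavity of the blastocyst, is made by the trophectoderm, the outer epithelium of the embryo. The sodium pump in the basolateral membrane of these cells drives sodium ions inward, water follows through aquaporin channels, and E-cadherin adhesions and tight junctions seal the epithelium so that the fluid is held. The genes described here are 9 parts of this machinery: *Atp1b1*, a beta subunit of the pump, the water channel genes *Aqp3*, *Aqp8* and *Aqp9*, the E-cadherin gene *Cdh1*, and the tight junction genes *Tjp1*, *Cldn4*, *Cldn6* and *Cldn7*. They were chosen by name, as every gene probe whose gene name in the scanner files of the IVF arrays was one of these 9. They had 12 of the 41174 gene probes on the array, 3 for *Aqp9*, 2 for *Tjp1* and 1 for each other gene, and the *Cdh1* probe was printed as 10 spots. A gene with several probes was given by its brightest over all arrays. By that probe all 9 genes were well above background on all 14 arrays, none was saturated, and all 9 passed the filter on dim probes in every comparison.

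Gene expression was measured at E4.0 in 2 kinds of clone from cumulus cells, 4 for which the donor cell was fused with the oocyte (fusion clones) and 4 for which its nucleus was injected (injection clones), and in 3 female and 3 male IVF-derived embryos. Cumulus cells are the somatic cells around the ovulated oocyte, so both kinds of clone are female, and the female IVF-derived embryos are their sex-matched controls. The arrays addressed whether the way the donor nucleus is brought into the oocyte changes the expression of the clone. According to the methods, the nuclear donors were mice heterozygous for an *Xist* knockout on a C57BL/6N and DBA/2 hybrid background, the recipient oocytes and the IVF-derived embryos came from the same hybrid, and reconstructed oocytes were activated with strontium chloride and kept in cytochalasin B before culture in KSOM medium. The labels of these arrays give no *Xist* genotype, and they do not say that the samples of a group came from separate donors or cultures. The p-values therefore measure only the spread between these samples, which may be technical.

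Between 57.4% and 65.2% of the gene spots of an array were well above background. No 2 groups shared a slide, and the 8 clones were scanned on another scanner and read with another software version than the 6 IVF-derived embryos, so that slide, scanner and embryo type cannot be told apart. Of the trophectoderm markers, 9 of 9 were well above background on every array, as were 5 of 5 epiblast markers. Primitive endoderm markers, of the inner layer that faces the cavity, were well above background on every array of the group for 8 of 8 genes in female and 7 of 8 in male IVF-derived embryos, but for 4 of 8 in fusion clones and 5 of 8 in injection clones, and *Foxa2* was not well above background in any clone. Of 10 cumulus cell markers, 5 (*Has2*, *Ptx3*, *Tnfaip6*, *Amh* and *Inhba*) were not well above background in any clone. The other 5 (*Amhr2*, *Foxl2*, *Cyp19a1*, *Fshr* and *Star*) were well above background in some or all clones of each kind. *Amhr2* averaged 10.38 in fusion and 10.80 in injection clones, above 9.03 in female and 8.89 in male embryos. *Foxl2* was lower in clones (5.66 and 5.61) than in these embryos (6.28 and 6.53). In whole blastocysts, fewer cells of a type and less RNA per cell cannot be told apart.

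Across the 9 genes, *Aqp9* by its brightest probe was lower in both kinds of clone than in IVF-derived embryos of either sex, without overlap. Clones and embryos did not overlap for 6.28% of all probes, and on the other *Aqp9* probes all groups overlapped. *Aqp8* spread widely among clones, from levels near those of the controls to levels far below them. *Aqp3*, *Cdh1* and *Tjp1* overlapped between all groups. A gene was called at a Benjamini-Hochberg adjusted p below 0.05 by limma over all probes tested. Fusion clones against female IVF-derived embryos gave 1 call among the 9 genes, *Aqp9* (lower), where 9.47% of all probes were called, and 5.14% of all probes were called lower. Injection clones against female IVF-derived embryos gave 0 calls among the 9 genes, where 3.61% of all probes were called, and 3 of the 9 (*Atp1b1*, *Aqp8* and *Aqp9*) had an unadjusted p below 0.05, beside 23.2% of all probes. By the rule of the study's methods (at least a 2-fold difference with p below 0.05 before adjustment), *Aqp9* passed in fusion clones (17.1% of all probes passed), and *Aqp8* and *Aqp9* passed in injection clones (14.1% of all probes passed). Both comparisons use the same 3 female IVF-derived embryos.

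**Figure D1:**
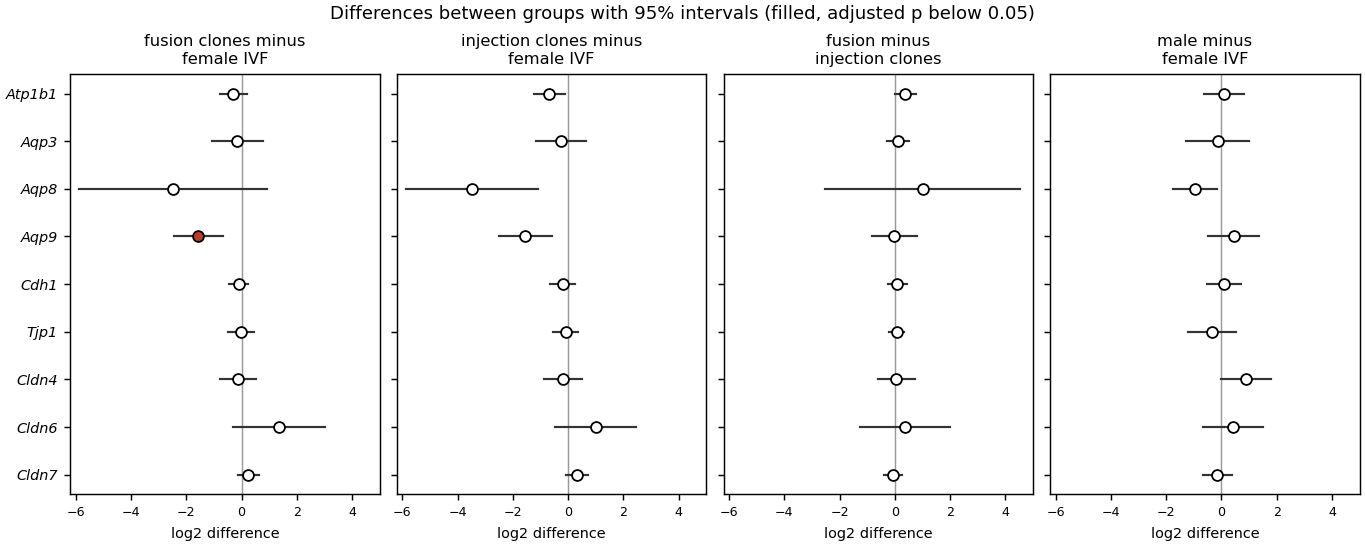
Difference in log2 normalized intensity (x axis) of each of the 9 genes (rows) in 4 comparisons, with the 95% interval of limma's estimate as a line and a filled point for an adjusted p below 0.05. *Aqp9* in fusion clones is the 1 filled point, and *Aqp8* has the widest interval in the 3 comparisons that hold clones.

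The groups did not overlap for *Aqp9* and *Cldn7* in fusion clones against female IVF-derived embryos, which is 2 of 9 genes beside 25.8% of all probes. In injection clones against the same embryos they did not overlap for *Atp1b1*, *Aqp8*, *Aqp9* and *Cldn7*, which is 4 of 9 beside 20.9% of all probes. The median difference over the 9 genes was -0.14 on the log2 scale in fusion clones and -0.20 in injection clones, beside -0.12 and -0.08 over all probes tested. The position of these medians depends on the scaling. With the log2 values the authors deposited, the median over all probes moved to 0.05 in fusion clones and 0.07 in injection clones, and the share of called probes that were higher in the clones moved from 45.7% to 62.4% and from 41.9% to 63.5%, so that small differences have to be read against these medians.

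The sequences just before the starts of the 4 genes whose groups did not overlap are shown here, since these are the genes for which 1 or both kinds of clone were separate from the female embryos: both kinds for *Aqp9* and *Cldn7*, and injection clones alone for *Aqp8* and *Atp1b1*. They are the 250 bases upstream of each RefSeq start in GRCm38.p6, written 5′ to 3′ on the strand of the gene, and *Aqp9* and *Cldn7* have 2 starts each. Capitals mark matches, on either strand, to 4 motifs of factors that act in blastocyst cells or broadly: GCCNNNGGC (AP-2 factors), GGAATG (TEAD factors), GATAAG (bound by the GATA family) and GGGCGG (the GC box). The windows are chr7:123462044-123462293 (plus strand) for *Aqp8*, chr9:71162634-71162883 and chr9:71163290-71163539 (minus strand) for *Aqp9*, chr1:164458356-164458605 (minus strand) for *Atp1b1*, and chr11:69964529-69964778 and chr11:69965171-69965420 (plus strand) for *Cldn7*.
Aqp8: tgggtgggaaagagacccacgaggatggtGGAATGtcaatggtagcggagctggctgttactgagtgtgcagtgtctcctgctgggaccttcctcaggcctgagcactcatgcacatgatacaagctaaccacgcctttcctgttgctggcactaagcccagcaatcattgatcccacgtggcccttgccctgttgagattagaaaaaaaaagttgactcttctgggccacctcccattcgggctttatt
Aqp9, start 1: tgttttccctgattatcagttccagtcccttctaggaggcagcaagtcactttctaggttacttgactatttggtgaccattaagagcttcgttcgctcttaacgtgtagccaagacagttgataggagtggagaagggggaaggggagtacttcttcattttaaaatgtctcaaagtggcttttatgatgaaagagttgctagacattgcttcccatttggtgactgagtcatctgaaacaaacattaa
Aqp9, start 2: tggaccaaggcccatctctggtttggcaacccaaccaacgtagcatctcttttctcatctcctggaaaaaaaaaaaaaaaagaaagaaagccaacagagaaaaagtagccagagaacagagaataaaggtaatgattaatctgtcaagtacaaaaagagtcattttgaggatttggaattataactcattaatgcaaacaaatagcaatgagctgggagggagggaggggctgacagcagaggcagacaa
Atp1b1: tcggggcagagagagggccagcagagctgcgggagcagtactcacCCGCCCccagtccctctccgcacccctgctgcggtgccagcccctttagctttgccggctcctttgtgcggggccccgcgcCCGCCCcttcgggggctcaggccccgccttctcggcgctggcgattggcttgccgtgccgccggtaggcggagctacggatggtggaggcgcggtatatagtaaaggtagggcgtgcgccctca
Cldn7, start 1: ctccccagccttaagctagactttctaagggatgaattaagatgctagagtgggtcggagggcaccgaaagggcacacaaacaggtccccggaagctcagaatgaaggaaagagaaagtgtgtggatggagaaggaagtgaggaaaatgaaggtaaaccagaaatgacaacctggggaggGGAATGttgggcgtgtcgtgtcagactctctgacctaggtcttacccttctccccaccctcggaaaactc
Cldn7, start 2: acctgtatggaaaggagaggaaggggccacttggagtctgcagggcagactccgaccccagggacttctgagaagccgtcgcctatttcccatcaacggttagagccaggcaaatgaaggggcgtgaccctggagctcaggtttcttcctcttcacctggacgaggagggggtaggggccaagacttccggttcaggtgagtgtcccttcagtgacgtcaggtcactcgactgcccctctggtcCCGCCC
*Aqp8* held 1 TEAD match, at bases 221 to 216 before its start, and *Cldn7* held 1 at bases 70 to 65 before the first start and a GC box directly before the second. *Atp1b1* held 2 GC boxes, and neither *Aqp9* window held a match to any of the 4 motifs. The windows of *Aqp3*, *Cldn4*, *Cldn6* and *Tjp1*, whose clones overlapped the female embryos, held GC boxes as well. Of all 32851 mouse windows of this length, 13.7% held the AP-2 motif, 12.6% the TEAD motif, 6.55% the GATA motif and 32.7% the GC box. G and C made up 41.6% and 40.4% of the *Aqp9* windows, 52.4% of the *Aqp8* window and 70.4% of the *Atp1b1* window, beside a median of 52.4% over all windows. A match is a run of letters and says nothing of whether a factor binds there. Windows were found for 8 of the 9 genes.

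*Aqp9* encodes an aquaglyceroporin, a channel that passes glycerol and other small solutes as well as water. On the log2 scale of normalized intensity its brightest probe read 10.14, 9.90, 10.13 and 11.02 in the 4 fusion clones and 10.46, 10.18, 9.67 and 10.96 in the 4 injection clones. It read 11.74, 12.47 and 11.38 in the 3 female and 11.94, 12.47 and 12.49 in the 3 male IVF-derived embryos. Every clone lay below every IVF-derived embryo, with a gap of 0.36 between the highest clone and the lowest embryo. The order of the group means ran from fusion clones (10.30 ± 0.49, SD, n = 4) and injection clones (10.32 ± 0.54, n = 4), which did not differ beyond their spread, to female (11.86 ± 0.56, n = 3) and male (12.30 ± 0.31, n = 3) IVF-derived embryos, which overlapped. Fusion clones were 2.96-fold lower than female IVF-derived embryos (log2 difference -1.57, SE 0.37, adjusted p = 0.0495, limma). This call was near the threshold and was lost when any 1 array other than fusion clone 4 was left out (adjusted p 0.0676 to 0.117, limma, without fusion clone 1, 2 or 3 or female embryo 1, 2 or 3, and differences of -1.81 to -1.26). Injection clones were 2.92-fold lower (log2 difference -1.55, SE 0.39), and the adjusted p of 0.0817 did not pass.

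The other *Aqp9* probes showed smaller differences. In the coordinates given in the IVF files, the brightest probe lies nearest the 3′ end of the gene, the second probe 1000 bases upstream and the third 21316 bases upstream. The second probe read 8.39 to 9.26 in fusion clones, 7.93 to 10.07 in injection clones, 8.66 to 9.85 in female and 8.92 to 10.62 in male IVF-derived embryos, so that all groups overlapped. Its log2 difference from female embryos was -0.50 (SE 0.35, adjusted p = 0.423, limma) in fusion clones and -0.48 (SE 0.57, adjusted p = 0.620) in injection clones. The third probe gave -0.29 (SE 0.43) and -0.16 (SE 0.67). The sign was the same on all 3 probes in both comparisons, and the groups separated on the brightest alone. The mean over the 3 probes gave -0.78 in fusion clones, with an adjusted p of 0.219.

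**Figure D2:**
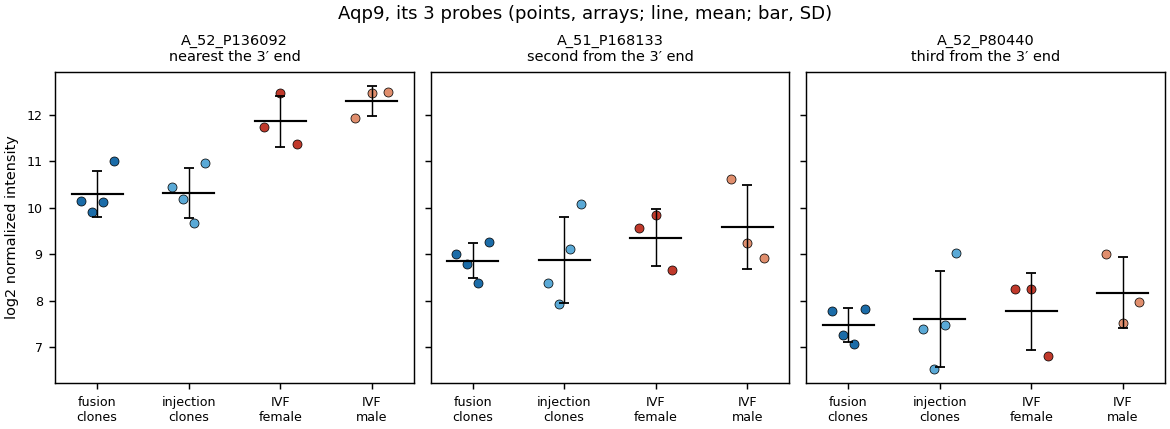
Log2 normalized intensity (y axis) of the 3 *Aqp9* probes by group, with 1 point an array, the mean as a line and the SD as a bar. On the probe nearest the 3′ end every clone lies below every IVF-derived embryo by at least 0.36, while on the other probes the groups overlap.

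*Aqp8* encodes a water channel that also passes ammonia. It read 12.39, 14.77, 13.20 and 8.43 in the 4 fusion clones and 10.27, 9.34, 13.45 and 11.70 in the 4 injection clones. It read 15.20, 14.25 and 14.56 in female and 13.47, 13.88 and 13.80 in male IVF-derived embryos. Fusion clone 2 lay between the female embryos, whereas fusion clone 4 was the lowest of all arrays. All injection clones lay below all IVF-derived embryos, and the fusion clones overlapped the embryos. The order of the group means was injection clones (11.19 ± 1.79, SD, n = 4), fusion clones (12.20 ± 2.70, n = 4), male (13.72 ± 0.22, n = 3) and female (14.67 ± 0.49, n = 3) IVF-derived embryos. Neighbors in this order overlapped except the male and female embryos, which lay 0.37 apart. Injection clones were 11.1-fold lower than female embryos (log2 difference -3.48, 95% interval -5.85 to -1.10), and the adjusted p of 0.104 by limma did not pass. Fusion clones differed from female embryos by -2.47 (interval -5.88 to 0.93, adjusted p = 0.322), and without fusion clone 4 this difference was -1.21.

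*Aqp8* had the largest spread of the 9 genes in both kinds of clone. Its SD of 2.70 among fusion clones was matched or exceeded by 17 of 20992 probes that were well above background on every array of the group (0.0810%), and its SD of 1.79 among injection clones by 343 of 21694 (1.58%). Both values rest in part on 1 array, since the SD was 1.21 without fusion clone 4, with 4.98% of probes as variable over the same arrays, and 1.19 without injection clone 3, with 8.41%. Among the IVF-derived embryos its SD was 0.22 in males and 0.49 in females. For the 9 genes together the median SD was 0.24 in fusion clones, 0.29 in injection clones, 0.31 in male and 0.30 in female embryos, beside 0.35, 0.41, 0.49 and 0.42 over all such probes. *Cldn6* was the next most variable of the 9 among fusion clones, with an SD of 1.17, and *Cdh1* the least, with 0.036. The *Cdh1* value is a mean of 10 spots and the others come from 1 spot, so these SDs are not alike. Among injection clones *Tjp1* was the least variable, with 0.15, and *Cdh1* had 0.26.

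The level of *Aqp8* moved with that of the primitive endoderm markers (*Gata6*, *Gata4*, *Sox17*, *Sox7*, *Pdgfra*, *Foxa2*, *Lama1* and *Col4a1*). The mean log2 intensity of these 8 genes was 9.19, 11.10, 10.80 and 7.45 in fusion clones 1 to 4 and 8.26, 8.34, 10.88 and 9.27 in injection clones 1 to 4. It was 12.93, 12.31 and 13.12 in female and 11.87, 11.13 and 12.95 in male IVF-derived embryos. The clones highest in *Aqp8*, fusion clones 2 and 3 and injection clone 3, were also the highest in these markers, and fusion clone 4 was the lowest in both.

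Within the 8 clones, Pearson's r between *Aqp8* and this mean was 0.96 (exact permutation test, two-sided p = 0.00062, adjusted p = 0.0223 over the 36 relations between the 9 genes and 4 marker lists). Spearman's rho was 0.95 (exact permutation p = 0.00114, adjusted p = 0.0411), and r was 0.92 over the 6 clones left after the 2 farthest from the median marker level were taken out. Within the 6 IVF-derived embryos r was 0.56 (exact permutation p = 0.264, adjusted p = 0.853 over 32 relations) and rho was 0.43 (exact permutation p = 0.419). Clones lie below IVF-derived embryos in the marker mean, in part through *Foxa2*, which was at the floor in every clone. No r over all 14 arrays is therefore given for this relation. The log2 of the summed intensity of the whole list ran from 16.30 to 17.41 in fusion clones, 15.99 to 17.12 in injection clones, 16.92 to 17.41 in female and 16.38 to 17.12 in male embryos. The part of the primitive endoderm markers in the *Aqp8* result was not tested.

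**Figure D3:**
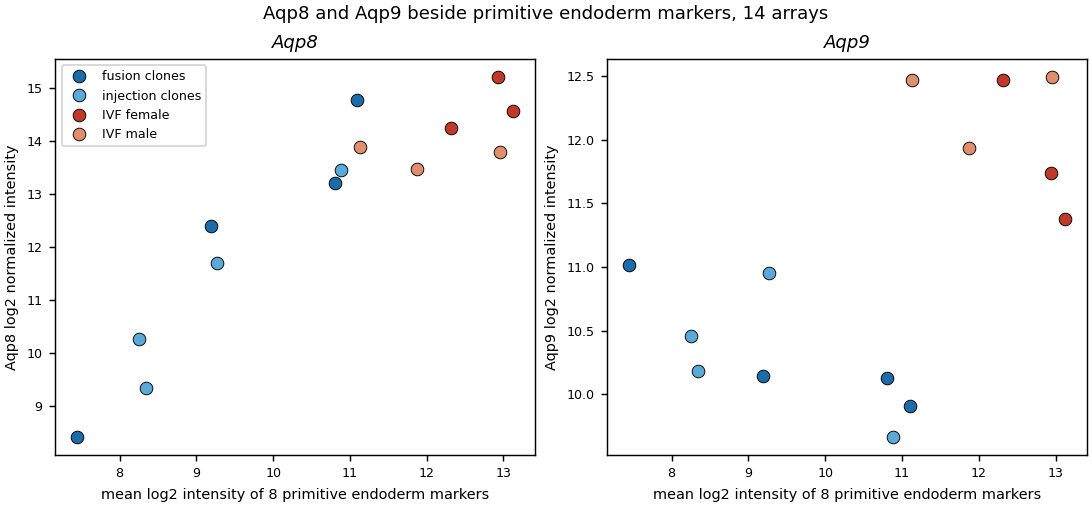
Log2 normalized intensity of *Aqp8* (left, y axis) and *Aqp9* (right, y axis) against the mean log2 intensity of 8 primitive endoderm markers (x axis), with 1 point an array. *Aqp8* rises with the markers among the 8 clones (r = 0.96). By its brightest probe *Aqp9* is lower in every clone than in every IVF-derived embryo. Marker level is at most 11.10 in clones and at least 11.13 in embryos. This mean includes *Foxa2*, which is at the floor of 4 in every clone and averages 11.19 in female and 10.47 in male embryos. Whether marker level separates the groups without *Foxa2* was not tested.

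Of the primitive endoderm markers themselves, 2 of 8 were called lower in fusion clones and 2 of 8 in injection clones. Over all probes, 5.14% were called lower in fusion clones and 3.61% were called in either direction in injection clones. *Sox7*, a transcription factor of this layer, fell by 6.39 on the log2 scale in fusion clones (adjusted p = 0.0178, limma), a call lost without female embryo 3. Its mean of 5.10 in fusion clones was near the floor. In injection clones it fell by 5.28, which was not called (adjusted p = 0.0643 by limma). *Lama1*, a laminin chain of this layer's basement membrane, fell by 4.43 in injection clones (adjusted p = 0.0443), a call lost whichever of the 7 arrays was left out. In fusion clones it fell by 3.92, which was not called (adjusted p = 0.139 by limma). *Foxa2*, named outside the rule for named genes because it made up both counts, was not well above background in any clone and read 11.19 on average in female embryos. The median difference of the list was -2.82 in fusion clones and -4.00 in injection clones. Not all of the list fell in this way, since *Gata6* differed by 0.23 in fusion clones and by -0.10 in injection clones. The sums for the trophectoderm list ran from 19.49 to 19.86 in fusion clones, 19.35 to 19.80 in injection clones, 19.79 to 20.002 in female and 19.88 to 19.91 in male embryos.

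*Aqp9* ran otherwise, since fusion clone 4, which had the lowest primitive endoderm level, had the highest *Aqp9* of the 8 clones. Among clones *Aqp9* moved against the mean of the epiblast markers, with r = -0.86 (exact permutation p = 0.00159, adjusted p = 0.0286), but rho was -0.90 with an adjusted p of 0.0821 by the exact permutation test. These were the 2 of 36 relations among clones with an adjusted p below 0.05 for r, and none of the 32 among IVF-derived embryos reached it. In those embryos the relation of *Aqp9* with the epiblast markers had the opposite sign, with r = 0.70 (exact permutation p = 0.106) and rho = 0.54.

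*Aqp3* encodes an aquaglyceroporin of epithelial membranes. It ran from 14.10 to 14.67 in fusion clones, 13.97 to 14.49 in injection clones, 14.10 to 15.48 in female and 14.18 to 14.82 in male IVF-derived embryos, so that all groups overlapped. Female embryo 1 was the highest array at 15.48, and the other female embryos were at 14.10 and 14.14. The difference from female embryos was -0.15 (interval -1.06 to 0.76) in fusion clones and -0.26 (interval -1.18 to 0.65) in injection clones, and both turned positive without female embryo 1 (0.30 and 0.19). Of the 8 other aquaporin genes on the array, 7 were tested in fusion clones and 6 in injection clones, and 0 were called in either direction, with medians of -0.49 and -0.38.

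*Atp1b1* encodes a beta subunit of the sodium pump, which carries the catalytic subunit to the membrane. It read 14.72, 14.71, 15.02 and 14.80 in fusion clones and 14.15, 14.24, 14.56 and 14.78 in injection clones. It read 14.96, 14.92 and 15.47 in female and 14.90, 15.19 and 15.52 in male IVF-derived embryos. All injection clones lay below all IVF-derived embryos of both sexes, while fusion clone 3 lay among the embryos. The order of the group means was injection clones (14.43 ± 0.29, n = 4), fusion clones (14.82 ± 0.14, n = 4), female (15.12 ± 0.30, n = 3) and male (15.20 ± 0.31, n = 3) embryos, and neighbors in this order overlapped. Injection clones were 1.61-fold lower than female embryos (log2 difference -0.69, SE 0.23, adjusted p = 0.147, limma), and fusion clones differed from them by -0.30 (SE 0.20, adjusted p = 0.393), or by -0.13 without female embryo 3.

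Of 10 other sodium pump genes tested (catalytic alpha subunits, other beta subunits and FXYD regulators), 0 were called in fusion or injection clones against female embryos, and their medians were -0.40 and -0.50. Among other genes of ion transport, 2 of 9 were called lower in fusion clones, beside 5.14% of all probes. *Clcn2*, a chloride channel gene, fell by 0.93 (adjusted p = 0.0340), and this call held without fusion clone 4 but was lost without any other array. In injection clones it fell by 1.21, which was not called (adjusted p = 0.108 by limma). *Cftr*, a chloride and bicarbonate channel gene named because it was the other call, was not well above background in any clone and read 7.38 on average in female embryos. It was also the 1 call of 9 in injection clones, where 3.61% of all probes were called. The medians of this list were -0.55 and -0.64.

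*Cdh1* encodes E-cadherin, the adhesion molecule of compaction and of the trophectoderm's adherens junctions. Its 10 spots averaged 15.76 to 15.84 in fusion clones, 15.47 to 16.01 in injection clones, 15.78 to 15.97 in female and 15.69 to 16.26 in male embryos. The 4 fusion clones lay within 0.08 of each other, and all groups overlapped. *Cdh1* differed from female embryos by -0.11 (interval -0.46 to 0.23) in fusion clones and by -0.20 (interval -0.65 to 0.24) in injection clones.

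Over all probes, 5.14% were called lower in fusion clones and 3.61% were called in either direction in injection clones. Among the 10 other adherens junction genes, 1 was called lower in each kind of clone. This was *Cdh3*, the P-cadherin gene, which fell by 2.82 in fusion clones (adjusted p = 0.0169, limma) and fell by 2.72 in injection clones (adjusted p = 0.0312). It was dim, with 7.47 on average in female embryos, and well above background in 3 of 4 fusion and 3 of 4 injection clones, and the size of the difference depended on the processing, with -1.34 and -1.37 under normexp background correction, and neither call held against all 6 IVF-derived embryos. The call in injection clones held without injection clone 4 but was lost without any other array. The list's medians were 0.04 and 0.11. Of the desmosome genes, 1 of 6 was called lower in fusion clones and 0 of 7 in injection clones. *Pkp2*, a plakophilin that ties desmosomal cadherins to the keratin network, fell by 0.70 in fusion clones (adjusted p = 0.0410), a call lost whichever of the 7 arrays was left out. In injection clones it fell by 0.66, which was not called (adjusted p = 0.163 by limma). The desmosome medians were -0.07 and -0.21.

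*Tjp1* encodes ZO-1, the scaffold under the tight junction. Its brightest probe ran from 13.47 to 13.68 in fusion clones, 13.36 to 13.67 in injection clones and 12.96 to 13.65 in male embryos. In female embryos it read 13.49 and 13.71, since the spot of female embryo 1 was marked as an outlier by the scanner software and was left missing. All groups overlapped, and the difference from these 2 female embryos was -0.03 (interval -0.50 to 0.45) in fusion clones and -0.09 (interval -0.54 to 0.37) in injection clones. The sign of both turned under other settings. The second *Tjp1* probe was dim, well above background on 10 of 14 arrays, and its differences of 0.61 and 1.15 were not called.

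Claudins are the membrane proteins that form the tight junction strands. *Cldn7* read 17.72, 17.46, 17.42 and 17.68 in fusion clones and 17.87, 17.76, 17.55 and 17.41 in injection clones. It read 17.37, 17.20 and 17.40 in female and 17.26, 17.20 and 17.07 in male IVF-derived embryos. Every clone lay above every embryo, by a gap of 0.02 between injection clone 4 and female embryo 3. The differences from female embryos were 0.25 (SE 0.16, adjusted p = 0.387, limma) in fusion clones and 0.33 (SE 0.16, adjusted p = 0.285) in injection clones. They were 0.02 and 0.07 when each array was scaled by its 75th percentile, and 0.05 and 0.10 with the deposited log2 values, so that this small difference depends on the scaling.

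*Cldn6* read 12.25, 11.43, 9.71 and 12.10 in fusion clones, and 12.37, 10.54, 10.23 and 10.90 in injection clones. It read 9.44, 10.84 and 9.79 in female and 10.70, 10.56 and 10.06 in male embryos. The highest levels were in clones, yet each kind of clone overlapped both sexes of embryo. The difference from female embryos was 1.35 (interval -0.31 to 3.005) in fusion clones and 0.99 (interval -0.47 to 2.45) in injection clones, with adjusted p values of 0.267 and 0.391 by limma. The latter difference was 0.53 without injection clone 1, which stood above the other injection clones. *Cldn4* ran from 10.59 to 11.53 in fusion clones, 10.82 to 11.76 in injection clones, 11.14 to 11.57 in female and 11.59 to 12.75 in male embryos. The male embryos were the highest group, and clones differed from female embryos by -0.14 and -0.18, both within the spread.

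**Figure D4:**
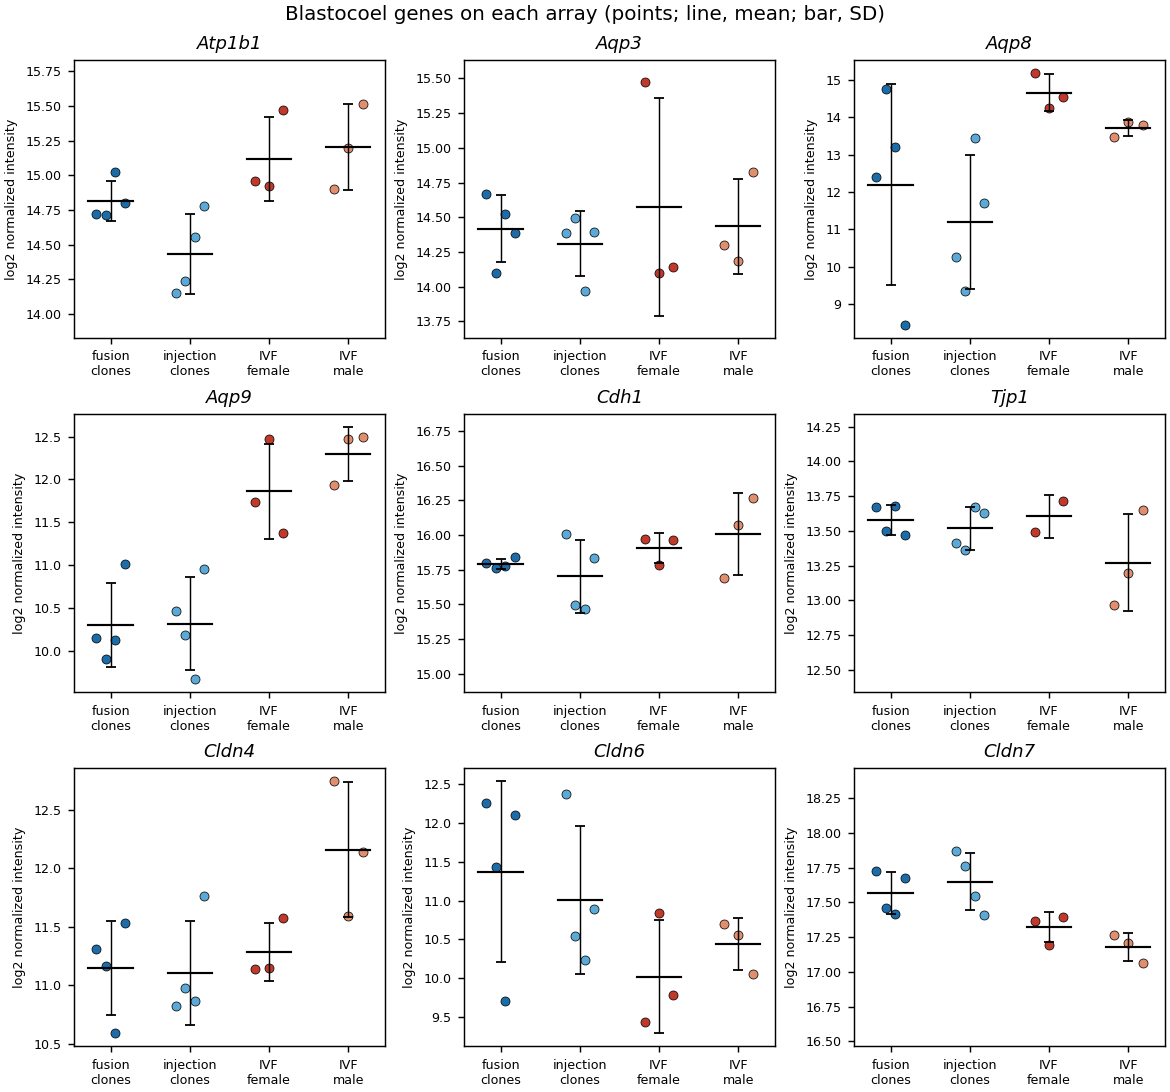
Log2 normalized intensity (y axis) of the 9 genes by group, with 1 point an array, the group mean as a line and the SD as a bar; the y axes differ between genes. *Aqp9*, by its brightest probe, separates clones from IVF-derived embryos by 0.36. *Aqp8* spreads over 6.35 among fusion clones, and *Cdh1*, a mean of 10 spots, spreads over 0.08 there.

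Among 23 other tight junction genes tested, 1 was called lower in fusion clones and 0 in injection clones. The shares over all probes were 5.14% called lower in fusion clones and 3.61% called in either direction in injection clones. *Jam3*, a junctional adhesion molecule gene, fell by 4.48 in fusion clones (adjusted p = 0.0146, limma), from 10.95 in female embryos to 6.47, and was called whichever of the 7 arrays was left out. In injection clones it fell by 3.84, which was not called (adjusted p = 0.151 by limma). The list's medians were -0.35 and -0.32. Of 15 genes of apical polarity (the Par, Crumbs and Scribble groups and the ezrin family), 0 were called in either kind of clone, with medians of -0.30 and -0.46. Of 8 trophectoderm markers tested, 1 was called lower in fusion clones and 0 in injection clones. *Elf5*, a transcription factor of trophoblast stem cells, fell by 2.96 in fusion clones (adjusted p = 0.0160) and was called whichever array was left out. In injection clones it fell by 3.65, which was not called (adjusted p = 0.0662 by limma). The medians of this marker list were -0.01 and -0.05. Epiblast markers had 0 of 5 called and cumulus cell markers 0 of 7, in both comparisons. The log2 sum of the cumulus list was 10.10 to 11.42 in fusion clones, 10.72 to 11.36 in injection clones, 9.90 to 10.09 in female and 9.79 to 11.15 in male embryos.

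The transfer methods were compared directly between the 4 fusion and 4 injection clones. None of the 9 genes was called and 0 of 32254 probes were called by limma, with 6.16% of all probes at an unadjusted p below 0.05. No gene of the 9 had groups without overlap, beside 3.32% of all probes. *Atp1b1* came nearest, with fusion clones 0.38 higher (interval -0.0049 to 0.77, unadjusted p = 0.0522 and adjusted p = 0.815 by limma). The intervals were -0.83 to 0.79 for *Aqp9*, -0.29 to 0.51 for *Aqp3*, -0.24 to 0.43 for *Cdh1*, -0.21 to 0.33 for *Tjp1* and -0.40 to 0.25 for *Cldn7*. They were wider for *Cldn4* (-0.63 to 0.71), *Cldn6* (-1.27 to 1.998) and *Aqp8* (-2.51 to 4.53), where a difference of 2-fold or more is not excluded by the interval for *Cldn6* and *Aqp8*. In each of the 11 other lists 0 genes were called, and the list medians lay between -0.42 (cumulus cell markers) and 0.51 (primitive endoderm markers), beside -0.02 over all probes.

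Male and female IVF-derived embryos gave 0 calls among the 9 genes, where 0.0594% of all probes (19 of 31990) were called, and 0 calls in each of the other lists. With the replicate number as a block, 0 probes were called. *Aqp8* was 1.93-fold lower in male embryos (log2 difference -0.95, unadjusted p = 0.0282, adjusted p = 0.596 by limma), with no overlap. *Cldn4* was 1.83-fold higher in male embryos (log2 difference 0.87, adjusted p = 0.650), with a gap of 0.01. These were the 2 of 9 genes whose sexes did not overlap, beside 12.9% of all probes. The interval for *Aqp9* was -0.47 to 1.35.

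The 8 clones were also compared with all 6 IVF-derived embryos, a comparison chosen after the values were seen, in which embryo type again cannot be told apart from slide and scanner and the sexes differ between the groups. Of the 9 genes, 3 were called, beside 20.6% of all probes, with 2 lower (12.2% of all probes) and 1 higher (8.37%). *Aqp9* was 3.42-fold lower in clones (log2 difference -1.78, SE 0.25, adjusted p = 0.000499, limma). *Atp1b1* was lower by 0.54 (SE 0.16, adjusted p = 0.0289), and this call was lost without injection clone 2 or 3, male embryo 3 or female embryo 3, with adjusted p of 0.0501 to 0.0643. *Cldn7* was higher by 0.36 (SE 0.099, adjusted p = 0.0204), but by 0.09 (adjusted p = 0.577) with 75th percentile scaling and 0.12 (adjusted p = 0.592) with the deposited values. *Aqp8* was lower by 2.50 (SE 0.88), and the adjusted p of 0.0612 did not pass, though *Aqp8* was called without fusion clone 2. Groups did not overlap for *Aqp9* and *Cldn7*, which is 2 of 9 beside 6.28% of all probes.

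In the same comparison, where 12.2% of all probes were called lower and 8.37% higher, the sodium pump list had 2 of 10 genes called lower. One of them, *Fxyd7*, a regulator of the pump, was near the floor in both groups. The ion transport list had 1 of 10 called higher and 3 lower. *Scnn1a*, a subunit of the epithelial sodium channel, rose by 2.003 (adjusted p = 0.0189) and was called under all 25 alternatives, while *Scnn1b*, another subunit, was dim in both groups. *Clcn2* fell by 1.08. The aquaporin list had 1 of 7 called lower, *Aqp4*, named as the only call, which was not well above background in any clone.

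Of 24 tight junction genes 1 was called higher and 4 lower. *Marveld3*, a relative of occludin, rose by 2.43 (adjusted p = 0.00901, limma), *Jam3* fell by 3.34 (adjusted p = 0.0118), and both were called under all 25 alternatives. *Cldn10* was dim, well above background in 1 of 8 clones. Of 10 adherens junction genes 1 was lower, *Cdh3*, which fell by 1.85 (by normexp its difference was -0.86). Of 7 desmosome genes 1 was higher and 2 lower, with *Pkp3* at 1.42 (adjusted p = 0.00497), *Pkp2* at -0.65 (adjusted p = 0.00292) and *Dsg2* at -0.53 (adjusted p = 0.0386). When only probes well above background on all clones or on all embryos were tested, in a separate fit, 35.8% of them were called in either direction. Of those calls, 41.9% were higher in clones. All 15 polarity genes were well above background on every array. In the fit over all probes, where 12.2% were called lower, 5 of these 15 genes were called lower and none higher. They included *Msn*, the ezrin relative moesin, which fell by 2.08 (adjusted p = 0.0206), *Llgl2*, of the basolateral Scribble group, which fell by 0.71 (adjusted p = 0.00756), and *Crb3*, an apical Crumbs gene, which fell by 0.66 (adjusted p = 0.0336). The calls of *Dsg2* and *Crb3* held in 3 and 5 of the 14 fits that left out 1 array.

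Among the marker lists, 3 of 8 trophectoderm genes were lower, with *Elf5* at -3.17 (adjusted p = 0.000537, limma) and *Cdx2*, the trophectoderm's lineage factor, at -0.60 (adjusted p = 0.0118). Of 5 epiblast genes 1 was higher, *Nanog*, a pluripotency factor, which rose by 1.02 (adjusted p = 0.0150). Of 8 primitive endoderm genes 4 were lower, with *Sox7* at -4.36 and *Lama1* at -3.81, and the *Sox7* call was lost without male embryo 3 or female embryo 3. Of 10 cumulus cell genes 1 was higher and 2 lower, with *Amhr2* at 1.63 and *Foxl2* at -0.77. The remaining calls of these lists, named after their values were seen, were *Cftr* (ion transport), *Cldn3* and *Tjp3* (tight junction), *Llgl1* and *Prkcz* (polarity), *Krt18* (trophectoderm), *Foxa2* and *Gata4* (primitive endoderm) and *Amh* (cumulus cells), and all were lower in clones. Of these, *Cftr*, *Foxa2* and *Amh* were not well above background in any clone and passed the filter through the embryos alone. *Amh* was near the floor in embryos too, with 4.27 on average in female and 4.85 in male embryos. The part of the marker lists in the results of the 9 genes was not tested beyond the relations given above.

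The genes whose pattern was most like each of the 9 were sought among 10676 genes that were well above background on all arrays, by Pearson's r over the 14 arrays, which includes the differences between groups and slides. *Aqp9* was closest to *Adprh* (r = 0.96) and *Endod1* (0.94), and *Aqp8* to *Rev3l* (0.91) and *Snai1* (0.91). *Atp1b1* was closest to *Hps3* (0.92) and *2700099C18Rik* (0.92), and *Aqp3* to *Lmtk2* (0.82) and *Kpna6* (0.79). For *Cdh1* they were *Aff1* (0.91) and *Kank1* (0.85), and for *Tjp1*, over 13 arrays, *Ankrd17* (0.95) and *1700086P04Rik* (0.92). For *Cldn4* they were *Ctrb1* (0.93) and *Olfr127* (0.92), for *Cldn6* *Rasl10a* (0.86) and *Stim1* (0.85), and for *Cldn7* *Pom121* (0.92) and *Ptp4a3* (0.92). With the mean of each group taken out first, r was 0.82 and 0.70 for *Aqp9* and 0.75 and 0.74 for *Cldn7*. It ran from 0.79 to 0.94 for the other genes. None of the 9 was among the 2 most like genes of another.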

How the data were processed

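Each of the 14 samples was hybridized to 1 single-color Agilent 4x44K array after 2 rounds of linear RNA amplification. The authors deposited the scanner files, whose processed signal is an intensity with background subtracted by Agilent Feature Extraction (10.5.1 per the labels), and normalized log2 values, made in GeneSpring by their methods, which were used as an alternative. Processed signals of 43379 gene spots were used, 1639 control spots were left out, and outlier-marked spots (101 to 338 an array) were set missing. Values were quantile-normalized over all arrays, floored at 16, turned to log2 and averaged over a probe's spots. Probes that were well above background on any array of a comparison were tested with limma 3.58.1 in R 4.3.3 and Benjamini-Hochberg adjustment over all probes tested, at adjusted p below 0.05. All intensities are in log2 units, and the number of arrays limits the precision. Differences are first group minus second. No probe's level is set against another's.

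Symbols came from RefSeq (GRCm38.p6) for 32719 of 41174 gene probes (79.5%), and promoter sequences from the same build for 8 of the 9 genes. The 9 genes, the lists and the tests were chosen with earlier results of these data known. Named were the 9 genes, of each list at most 3 called genes (2 for marker lists) with the largest difference that were well above background in both groups, and the 2 most like genes of each of the 9. The values of 1 called gene are not reported here.

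Deviations of same-numbered arrays correlated at 0.108, 0.128 and 0.109 between male and female embryos, and at -0.063 to 0.105 between the other groups. Differently numbered arrays were not compared, so whether replicate numbers pair samples was not tested. Alternatives were scaling by the 75th percentile, normexp (offset 50, on median signals, since the clone files hold no mean signal), the deposited values, floors of 1 and 32, filters, a variance trend, all groups in 1 fit, all IVF-derived embryos as controls, a replicate block, the mean over probes, outlier spots kept and each array left out in turn. Keeping outlier spots and leaving out arrays for the spread of *Aqp8* were chosen after seeing the data. The test was tried on simulated data with 200 changed probes. Relations and figures used Python 3.11.15, pandas 2.3.3 and matplotlib 3.10.9.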

Additional observations from a re-analysis of the deposited data

Results flagged for a closer look

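*Cldn4* on the array of injection clone 4 read 11.76 on the log2 scale, while the other 3 injection clones lay between 10.82 and 10.97. Its gap to the next array was 0.837 of the group's range, above Dixon's 95% limit for 4 values. It was 1 of 18 groups of 4 arrays examined in this way, and chance passes about 5% of such groups.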

How the results depend on the processing

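The count of genes called among the 9 was 1 in fusion clones against female embryos. It was 0 with the values as deposited, at floors of 1 and 32, without the filter on dim probes, with the replicate block, with outlier spots kept and with the mean over probes, and 0 to 1 with 1 array left out. In injection clones it was 0, but 1 with normexp and with the 4 groups in 1 fit, 2 by the threshold of the methods and 3 against all 6 IVF-derived embryos (*Atp1b1*, *Aqp8* and *Aqp9*, all lower). In all clones it was 3, but 1 with a floor of 1, 2 with 75th percentile scaling, with normexp and by the threshold of the methods, 4 with the stricter filter, and 2 to 4 with 1 array left out. For *Aqp9* in fusion clones the adjusted p was 0.0621 with the deposited values, 0.0628 and 0.0597 with floors of 1 and 32, 0.0794 without the filter, 0.0536 with outlier spots kept, 0.151 with the replicate block and 0.219 with the mean over probes. The replicate block called 0 probes in fusion clones against female embryos in place of 3070.

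Signs turned only for differences that were not called. For *Tjp1* they were 0.066, 0.30 and 0.17 in fusion clones and 0.019, 0.54 and 0.11 in injection clones against female embryos with normexp, with the mean over probes and against all 6 embryos, and with the mean over probes -0.24 between the clones and 0.32 between the sexes. With 1 array left out, fusion clones against female embryos gave -0.14 to 0.083 for *Tjp1*, -0.26 to 0.049 for *Cldn4* and -0.39 to 0.30 for *Aqp3*, and injection clones gave -0.50 to 0.19 for *Aqp3* and -0.20 to 0.022 for *Tjp1*. Between the clones they gave -0.26 to 0.20 for *Aqp9*, -0.084 to 0.26 for *Cldn4* and -0.0051 to 0.22 for *Aqp3*. Between the sexes they gave -0.071 to 0.26 for *Atp1b1*, -0.028 to 0.26 for *Cdh1* and -0.37 to 0.32 for *Aqp3*, and all clones against all embryos gave -0.22 to 0.055 for *Aqp3*. Of 75 values (the 9 genes in 5 comparisons and the named genes of the lists), 35 kept sign and side of the threshold under every alternative run, and over all alternatives 123 calls were lost and 11 gained. The cause of these changes was not tested.

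The number of probes called changed by over 1.5 times in several fits. In fusion clones against female embryos it was 1116 to 2753 with 1 array left out and 5544 by the threshold of the methods, in place of 3070. In injection clones it was 162 to 1037 with 1 array left out, 599 with a floor of 1, 616 with the deposited values, 774 without the filter, 1926 with a stricter filter, 3092 with the 4 groups in 1 fit, 2672 against all 6 embryos, 4613 by the threshold of the methods and 0 with the replicate block, in place of 1183. Between the clones it was 2 with the deposited values, 11 with a floor of 1, 1 with the 4 groups in 1 fit and 773 by the threshold of the methods, in place of 0. Between the sexes it was 1 to 16 with 1 array left out, 7 with normexp, 3 with a variance trend, 34 without the filter, 56 with a stricter filter, 100 with a floor of 1, 151 with the deposited values, 206 with the 4 groups in 1 fit and 1870 by the threshold of the methods, in place of 19. With the deposited values the higher share of calls in all clones was 54.8% in place of 40.7%. Slide was not run as a block, since no slide held 2 groups. Few arrays limit every comparison.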
